A study of Gallus gallus with 72 samples.

Results

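Translation turns messenger RNA into protein in a fixed order of steps. Initiation factors bring the small ribosomal subunit, the starter tRNA and the message together, elongation factors deliver each loaded tRNA and move the ribosome along, and a release factor ends the chain. Aminoacyl-tRNA synthetases load each amino acid onto its tRNA, with separate enzyme sets for the cytosol and the mitochondrion. Skeletal muscle is known for switching the form of its main elongation factor as it matures, and for tuning initiation through binding proteins of the cap-binding factor and through kinases that phosphorylate an initiation or elongation factor.

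The genes described here are the translation factors and aminoacyl-tRNA synthetases of chicken breast muscle. They were chosen by symbol: initiation, elongation and termination factors whose names begin with EIF or EEF or read ETF1, together with their name-sharing kinases, binding proteins and methyltransferases, and the synthetases, whose symbols end in ARS or PRS with or without a final digit. The rule found 85 of the 12046 genes in the count table, and all 85 passed the filter on low counts. They comprised 36 initiation factors, 8 elongation and termination factors, 13 regulators and modifying enzymes, 15 cytosolic synthetases and 13 mitochondrial synthetases. These roles were assigned from the symbols alone. EEF1E1 was therefore counted with the elongation factors, and KARS, which serves both cytosol and mitochondrion, with the cytosolic synthetases. The symbols EPRS and WARS in the table are the cytosolic enzymes now written with a final 1.

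Breast muscle RNA from male broilers was sequenced in 72 libraries, 6 for each of 12 groups. The groups were crossbred birds, Cornish purebreds and White Plymouth Rock purebreds, each taken at embryonic day 17 (E17) and on days 1 (D1), 21 (D21) and 42 (D42) after hatch. The crossbred birds are progeny of both purebreds, and the labels name no treatment or allele. RNA came from frozen whole muscle, although the source label speaks of myofibroblasts under a cell line tag, and the E17 age label reads as embryonic years. The labels do not say that replicates were separate birds, so a p-value here reflects the spread among libraries alone, some of it possibly technical.

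Total counts per library ran from 16673085 to 75670549, with a median of 54464688. The lowest total was that of crossbred D1 library 1. At D42 the libraries numbered 3 stood apart in all 3 breeds: the mean log2 deviation of the initiation factors from their average over all libraries was 0.33 in the crossbred, 0.54 in the Cornish and 0.42 in the White Plymouth Rock library, against −0.11 to 0.24 in the other 15 D42 libraries. Of 8 listed skeletal muscle markers 6 were in the table, and their summed level was 17313 ± 3046 CPM at E17, 24736 ± 5855 at D1, 57720 ± 9269 at D21 and 54241 ± 13462 at D42 (mean ± SD, n = 18 per stage). CPM are counts scaled to a common library size, after TMM correction for library composition. Markers of fibroblasts and myofibroblasts (6 of 6) summed to 5295 to 32067 CPM in the D1 libraries, against 35948 to 56142 CPM in the E17 libraries. Leukocyte markers (7 of 7) summed to 1042 to 1619 CPM at D21, against 71.5 to 196 CPM at D1, and cell division markers (6 of 8) averaged 124 CPM at D1 against 293 CPM at E17. No muscle or fibroblast marker was at 0 in any library. The part of these shifts in the stage results was not tested, and in whole tissue fewer cells of a type and less RNA per cell cannot be told apart.

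The first question was how the translation genes moved between stages, averaged over the breeds with equal weight. Around hatch most of these genes rose. In D1 against E17 muscle, 51 of the 85 genes were higher and 12 lower (edgeR quasi-likelihood test, Benjamini-Hochberg adjusted p under 0.05 over all 11932 genes tested). Over all genes 37.3% were higher and 35.6% lower, 73% in all. Of the 57 factors and regulators 39 were higher and 7 lower, and of the 28 synthetases 12 were higher and 5 lower. The members higher made up 60% of the 85 and those lower 14.1%. Their median log2 fold change was 0.28, beside 0.01 over all genes. In D21 against D1 muscle the balance turned, with 23 genes higher and 45 lower, against 36.4% of all genes higher and 36.8% lower, 73.2% in all; the median was −0.17 beside −0.01. These steps share the D1 libraries, so a high or low D1 value enters both with opposite sign.

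**Figure D1:**
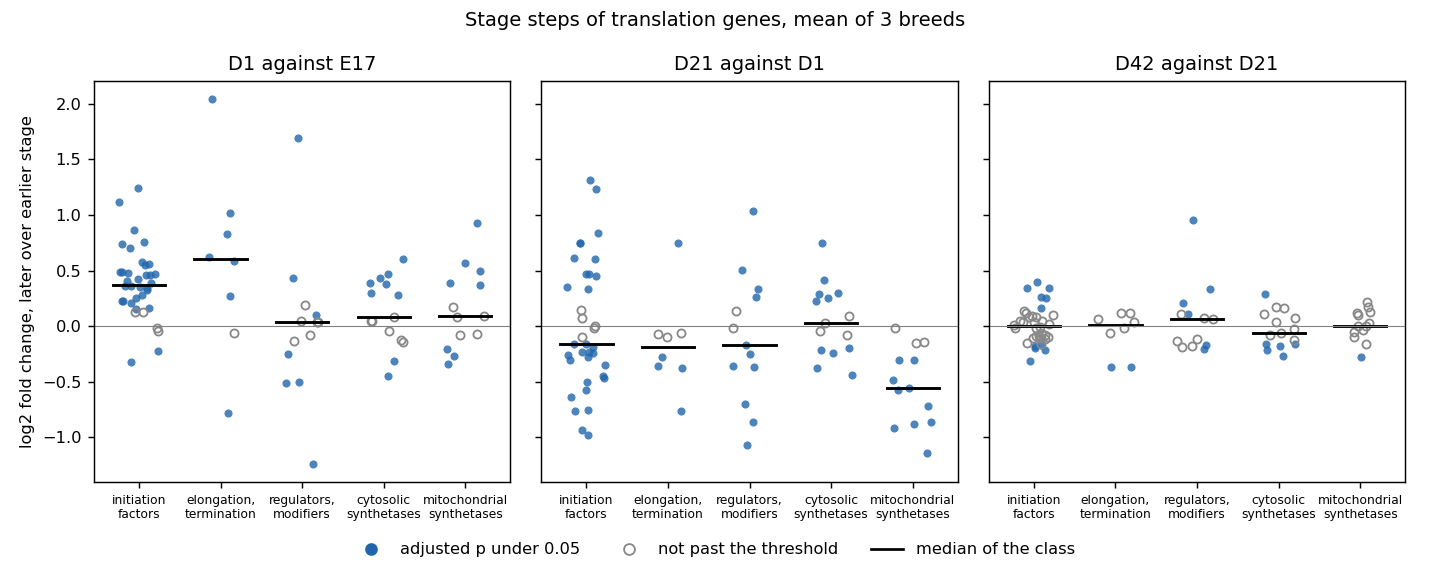
Log2 fold change (later over earlier stage, y axis) of each of the 85 genes by role (x axis) in the 3 consecutive stage steps, averaged over breeds. Filled points passed the adjusted threshold, open points did not, and bars are class medians, which at D1 against E17 stood at 0.38 for initiation factors and 0.61 for elongation and termination factors.

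In the last step the movement was small. In D42 against D21 muscle 11 genes were higher and 15 lower, where 17.1% of all genes were higher and 15.6% lower, and the share of members called in either direction, 30.6%, was near the 32.6% of all genes. Without the D42 libraries numbered 3 the split was 8 higher and 21 lower, with 21 of the 26 calls shared. Across the whole course, D42 against E17, 40 genes were higher and 28 lower, beside 40% and 41.2% of all genes, 81.2% in all. Without those 3 libraries 36 were higher and 33 lower. The shares of all genes above are from the fit of all 72 libraries. Those of the fit without the 3 libraries are not given here, so its splits have no background beside them.

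Counted by group means, 33 of the 85 genes had their highest level at D1 in all 3 breeds, and 17 of these were initiation factors. Counted separately, 34 of the 85 genes had their lowest level at E17 in all 3 breeds, 18 of them initiation factors. The D1 and E17 counts overlap: EEF1A2, EIF4E and EIF4EBP1, among others, are in both. D42 was the highest stage in all breeds for 11 genes and D21 for 8. The same counts over all genes are not given here.

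Among the initiation factors, 30 of 36 rose and 2 fell at D1 relative to E17, beside 37.3% and 35.6% of all genes. The largest rises were those of EIF4E3, EIF4A2 and EIF4E. Of the 9 initiation factors with EIF4 symbols 6 were higher and 1 lower, with a median log2 fold change of 0.47. EIF4E, which binds the cap at the start of a message, ran from 125 to 163 CPM in the D1 libraries (median 143), against 73.7 to 86.6 CPM in the E17 libraries (median 78.8). Every D1 library lay above every E17 library, and the log2 fold change was 0.86 ± 0.06 (SE; adjusted p = 1.85e-21). EIF4E3, a cap-binding relative of EIF4E, rose by 1.24 ± 0.13, with 18.7 to 83.6 CPM at D1 (median 26.9) against 9.61 to 17.6 CPM at E17 (median 12.9). EIF4A2, an RNA helicase that unwinds the leader of the message, rose by 1.12 ± 0.08, with 1239 to 3756 CPM at D1 (median 1776) against 737 to 954 CPM at E17 (median 822). Both EIF4E3 and EIF4A2 were highest in White Plymouth Rock D1 library 1, and without it their log2 fold changes were 1.10 and 1.02.

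EIF5 and EIF4H were the initiation factors that fell at D1. EIF5 activates the GTPase of eIF2 when the start codon is found, and its D1 libraries held 209 to 397 CPM (median 265) against 304 to 431 CPM in the E17 libraries (median 351). The ranges overlapped, and the fall was −0.33 ± 0.08 (adjusted p = 0.000449). EIF4H, a partner of the EIF4A helicases, fell by 0.22 on the log2 scale.

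The subunits of eIF3, the large scaffold on the small ribosomal subunit, rose together around hatch: 10 of the 11 in the table were higher at D1 than at E17 and none lower, with a median log2 fold change of 0.43. Over all genes 37.3% were higher and 35.6% lower in that step. By D21 the eIF3 subunits parted, with 1 higher and 8 lower than at D1, beside 36.4% and 36.8% of all genes. EIF3J, a loosely bound subunit, reached 202 to 292 CPM at D21 (median 255) against 119 to 200 CPM at D1 (median 148), a rise of 0.75 ± 0.09 with no overlap. EIF3M held 158 to 206 CPM at D21 (median 179) against 263 to 468 CPM at D1 (median 353). All D21 libraries lay below all D1 libraries, and the log2 fold change was −0.98 ± 0.07 (adjusted p = 1.62e-19). At D42 against E17 the log2 fold change was 1.503 for EIF3J and −0.86 for EIF3M.

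All 3 subunits of eIF2, which carries the starter tRNA, were higher at D1 than at E17, a step in which 37.3% of all genes were higher. At D21 against D1 they did not move as a unit. EIF2S2, its beta subunit, held 159 to 312 CPM at D21 (median 204) against 67.9 to 106 CPM at D1 (median 88.2). The stages did not overlap, and the rise was 1.31 ± 0.08 (adjusted p = 2.00e-23). EIF2S3, the gamma subunit that binds GTP and the tRNA, fell by 0.76 on the log2 scale over the same step, with 282 to 417 CPM at D21 (median 326) against 395 to 697 CPM at D1 (median 548). EIF2S1, the alpha subunit that the stress kinases phosphorylate, changed least of the 3 subunits in size, at −0.19 ± 0.04. Within breeds, EIF2S2 rose at D21 by 1.18 in crossbred, 1.26 in Cornish and 1.49 in White Plymouth Rock muscle.

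eIF2B recharges eIF2 with GTP between rounds. All 5 of its subunits were higher at D1 than at E17, a step in which 37.3% of all genes were higher. At D21 against D1 EIF2B2, EIF2B3 and EIF2B4 rose while EIF2B1 and EIF2B5 fell, and EIF2B2 had the largest change, 0.84 ± 0.07, with 68.3 to 105 CPM at D21 against 35.5 to 57 CPM at D1.

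The factors of start-site choice and subunit joining differed in timing. EIF5 held 492 to 966 CPM at D21 (median 618) against 209 to 397 CPM at D1 (median 265), a rise of 1.23 ± 0.09 (adjusted p = 1.73e-20) with no overlap. At D42 against E17, EIF1, EIF1B, EIF5 and EIF5B were each higher with no overlap between stages, by 0.74, 1.55, 0.93 and 1.32. EIF1, with its close relative EIF1B, guards start codon choice, and EIF5B joins the large ribosomal subunit. EIF5B rose by 0.58 ± 0.09 at D1 against E17 and by 0.60 ± 0.09 at D21 against D1. EIF1AX, which works with EIF1 in scanning for the start codon, rose by 0.26 ± 0.06 at D1 against E17 and had −0.02 ± 0.06, not past the threshold, at D21 against D1. EIF4B, an activator of the EIF4A helicases, went the other way at D21 against D1, with 254 to 362 CPM against 429 to 683 CPM and a log2 fold change of −0.94 ± 0.06.

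**Figure D2:**
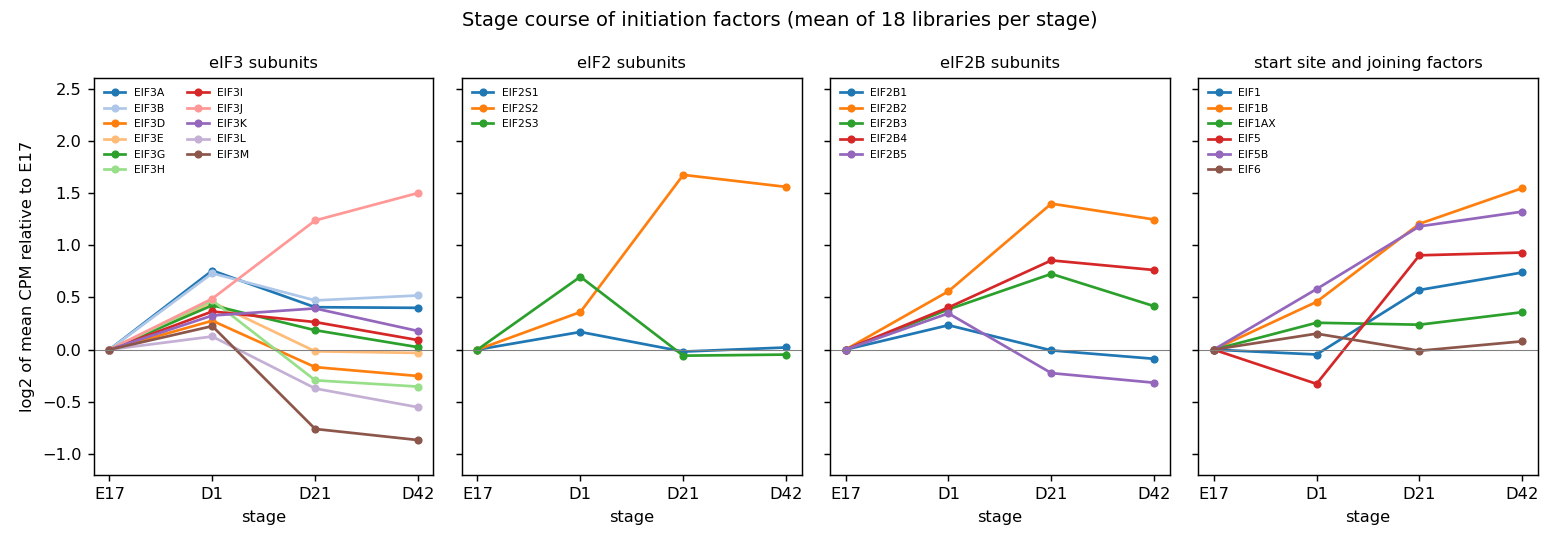
Stage mean CPM of initiation factors relative to their own E17 mean (log2, y axis) over the 4 stages (x axis, mean of 18 libraries each), by complex. EIF3J and EIF3M, and EIF2S2 and EIF2S3, part after D1, while EIF1B and EIF5B are higher at each later stage.

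The largest change of the elongation factors was the exchange of the EEF1A forms, which deliver loaded tRNAs to the ribosome. EEF1A1 (chr3:81193011-81197655, GRCg7b) is the form of most growing cells and EEF1A2 (chr20:9343587-9356747) the form of mature muscle and neurons in mammals. EEF1A2 held 6209 to 13809 CPM in the D1 libraries (median 9959), against 1707 to 3123 CPM in the E17 libraries (median 2408). No D1 library reached down to the E17 range, and the rise was 2.04 ± 0.09 (adjusted p = 1.11e-28). EEF1A1 held 2518 to 4304 CPM at D1 (median 3415) against 4727 to 7397 CPM at E17 (median 5655), again without overlap, and fell by 0.78 on the log2 scale (SE 0.10; adjusted p = 6.80e-11).

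The log2 ratio of EEF1A2 to EEF1A1 averaged 1.52 ± 0.40 at D1 against −1.30 ± 0.28 at E17 (SD, n = 18). The difference of 2.82 had a two-sided permutation p of 2e-05, the smallest that 100000 resamples can give. It was 2.72 in crossbred, 3.09 in Cornish and 2.65 in White Plymouth Rock birds, each with an exact permutation p of 0.00216, the smallest for 6 against 6 libraries. Only the change of this ratio can be read, because the CPM are not corrected for transcript length. How reads shared by these close paralogues were counted is not given in the sources used here. Their part in the change was not tested. At D21 against D1 the ratio differed by −0.10 (permutation p = 0.468), and at D42 it exceeded that of D21 by 0.53 (permutation p = 0.00358). Without the D42 libraries numbered 3 the difference of D42 from D21 was 0.37 (permutation p = 0.0222), and within breeds it was 0.38 in crossbred (exact permutation p = 0.355), 0.38 in Cornish (exact permutation p = 0.193) and 0.82 in White Plymouth Rock muscle (exact permutation p = 0.00649).

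EEF1A1 went on falling after hatch. It held 1227 to 3715 CPM at D42 (median 1977) and 2049 to 3325 CPM at D21 (median 2834), and each of these stages overlapped the one before it. Its log2 fold change was −0.28 ± 0.09 for D21 against D1 and −0.37 ± 0.10 for D42 against D21, and −1.43 ± 0.10 for D42 against E17. EEF1A2 fell by 0.37 on the log2 scale at D21 against D1 (SE 0.09; adjusted p = 0.00021), and at D42 against D21 its log2 fold change of 0.12 ± 0.09 did not pass the test (adjusted p = 0.337).

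**Figure D3:**
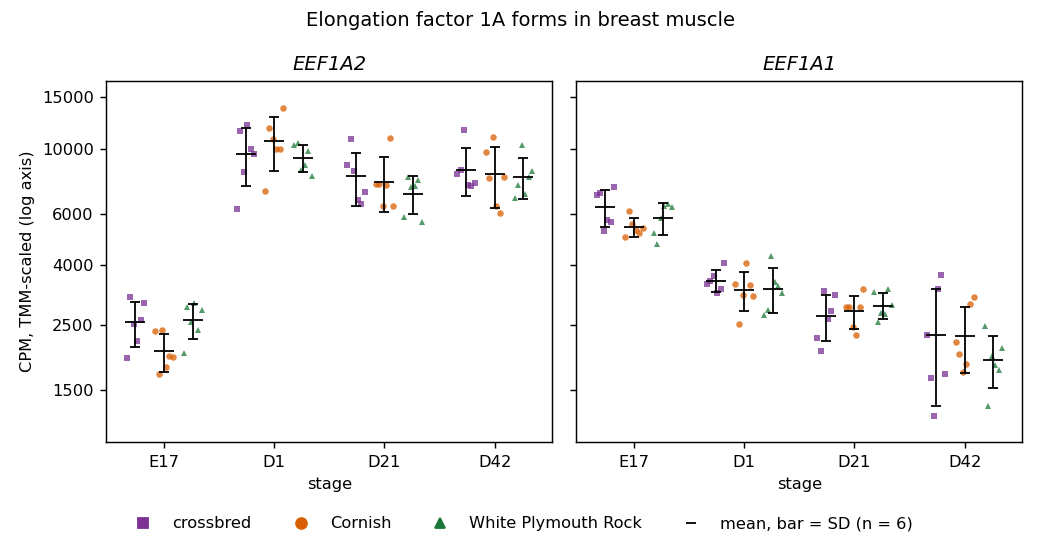
EEF1A2 (left) and EEF1A1 (right) in every library by stage and breed, in CPM on a log axis; points are libraries, horizontal marks are means and bars are SD (n = 6). All D1 libraries of EEF1A2 lie at 6209 CPM or higher and all E17 libraries at 3123 CPM or lower, while EEF1A1 is highest at E17.

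EEF2, which moves the ribosome by a codon after each bond, peaked at D1. It held 4043 to 6960 CPM at D1 (median 5686), against 2647 to 5511 CPM at E17 (median 3541), a rise of 0.63 ± 0.08 with overlap. At D21 it held 2776 to 3997 CPM, all below D1, and fell by 0.76 on the log2 scale (adjusted p = 8.20e-14). Its level at D42 did not pass the test against E17 (−0.16 ± 0.08, adjusted p = 0.0524).

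ETF1, the release factor that reads stop codons, climbed in both early steps. Its libraries held 76.6 to 113 CPM at E17 (median 93.8), 143 to 242 CPM at D1 (median 185) and 258 to 456 CPM at D21 (median 325). Neither step overlapped, with log2 fold changes of 1.02 ± 0.08 and 0.75 ± 0.08. At D42 it was lower than at D21 by −0.37 ± 0.08.

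The nucleotide exchange factors of EEF1A rose less. EEF1B2 rose by 0.59 and EEF1D by 0.27 at D1 against E17, and EEF1E1, a small protein of the multi-synthetase complex, by 0.83. EIF5A2, a helper of peptide bond formation at difficult codons, did not pass the test in any step, with log2 fold changes between −0.07 and 0.04 in the consecutive steps.

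The regulators moved in both directions at hatch, 3 higher and 4 lower of 13, beside 37.3% and 35.6% of all genes. EIF4EBP1 (chr22:2418905-2423203) encodes a repressor that holds EIF4E away from the cap-binding scaffold until mTOR phosphorylates it. It held 595 to 1214 CPM at D1 (median 908), against 227 to 364 CPM at E17 (median 286). The stages did not overlap, and the rise was 1.70 ± 0.08 (adjusted p = 6.79e-28), or 1.74 in crossbred, 1.85 in Cornish and 1.502 in White Plymouth Rock muscle. At D21 it fell by 1.07 on the log2 scale, with 296 to 680 CPM, overlapping D1. EIF4EBP2 and EIF4EBP3, its relatives, had log2 fold changes of 0.04 ± 0.06 (not past the threshold) and 0.43 ± 0.07 at D1 against E17.

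EEF2K (chr14:8655740-8682393) encodes the kinase that inactivates EEF2. It held 81.3 to 164 CPM at D1 (median 120) against 242 to 351 CPM at E17 (median 273). All D1 libraries lay below all E17 libraries, and the log2 fold change was −1.24 ± 0.09 (adjusted p = 3.61e-20). At D21 it rose by 0.51 ± 0.09, to 126 to 239 CPM, and at D42 it was below E17 by −0.62 ± 0.09. EEF2KMT, a methyltransferase that modifies EEF2, fell by 0.70 on the log2 scale at D21 against D1.

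Of the kinases that phosphorylate EIF2S1, EIF2AK2, the sensor of double-stranded RNA also called PKR, changed most. It held 14.2 to 36.7 CPM at D21 (median 20.3), against 7 to 13.7 CPM at D1 (median 10.2), without overlap, and rose by 1.04 ± 0.18 (adjusted p = 8.72e-07). At D42 it was uneven: 14.2, 61.6, 14.6, 18.5, 26.8 and 112 CPM in the crossbred libraries, 19.9, 20.0, 45.8, 67.0, 21.5 and 17.7 CPM in the Cornish, and 40.7, 35.4, 52.4, 35.1, 37.2 and 130 CPM in the White Plymouth Rock. Each breed had libraries within the D21 range, up to 36.7 CPM, and libraries above it. The rise at D42 against D21 was 0.96 ± 0.18 (adjusted p = 3.48e-05). It was 0.64, still past the threshold, without the crossbred and White Plymouth Rock libraries numbered 6. Within crossbred or Cornish muscle alone it was not called. No regulator was called there in that step, with log2 fold changes of at most 0.91 and 0.37. In White Plymouth Rock muscle 1 regulator was called higher and 1 lower, and the largest log2 fold change of a regulator was 1.59. Summed leukocyte markers ran from 401 to 3665 CPM at D42, against 1042 to 1619 CPM at D21. The part of leukocytes in the rise of EIF2AK2 was not tested.

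EIF2AK1, the heme-regulated kinase, fell by 0.25 on the log2 scale at D21 against D1. Its log2 fold change at D42 against D21 was −0.17 ± 0.06, a call lost with no filter on low counts and without the crossbred and White Plymouth Rock D42 libraries numbered 6. EIF2AK3, the kinase of the endoplasmic reticulum, fell by 0.36 at D21, while EIF2AK4, the sensor of uncharged tRNA, fell by 0.25 at D1 and then rose by 0.33 at D21 and 0.21 at D42.

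**Figure D4:**
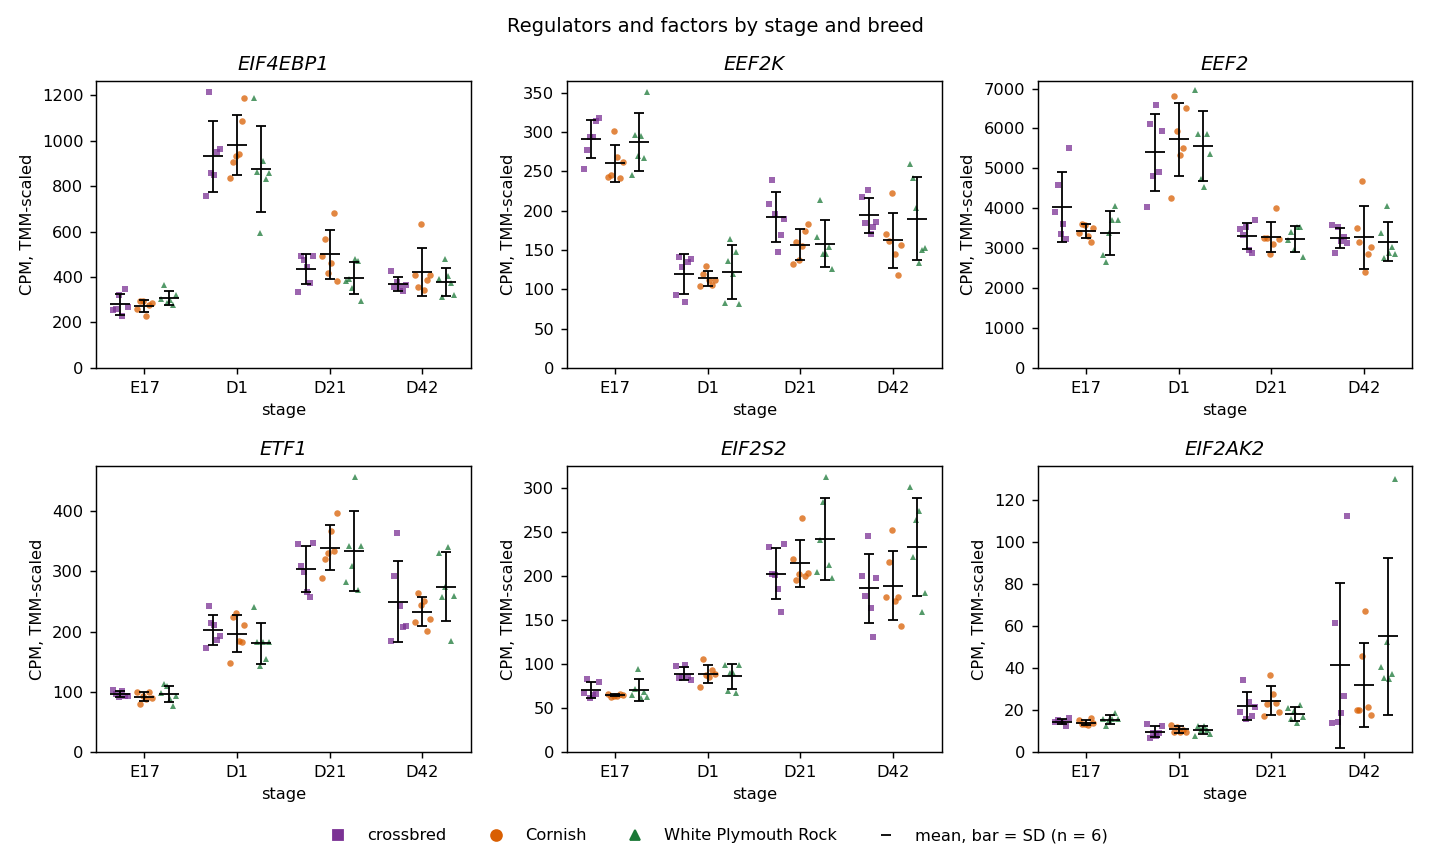
CPM (y axis, from 0) of EIF4EBP1, EEF2K, EEF2, ETF1, EIF2S2 and EIF2AK2 in every library by stage (x axis) and breed; horizontal marks are means and bars SD (n = 6). EIF4EBP1 peaks at D1, where EEF2K is lowest, and EIF2AK2 spreads up to 130 CPM at D42.

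The cytosolic synthetases moved in both directions, with medians near 0 in both early steps. At D1 against E17, 7 of 15 were higher and 2 lower, beside 37.3% and 35.6% of all genes. Their median log2 fold change was 0.08. At D21 against D1, 6 were higher and 5 lower, with a median of 0.03, beside 36.4% and 36.8% of all genes. Over the whole course, D42 against E17, 8 were higher and 4 lower, with a median of 0.21, beside 40% and 41.2% of all genes. HARS1, the histidine enzyme, held 61.7 to 85.2 CPM at D1 (median 76.3) against 44.5 to 61.9 CPM at E17 (median 49.6). It rose by 0.60 ± 0.05 with a slight overlap, and fell by 0.44 on the log2 scale at D21. EPRS, which carries the glutamate and proline activities, rose by 0.47 ± 0.08 at D1.

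AARS1 rose in both early steps. It held 95.8 to 180 CPM at E17 (median 106), 105 to 216 CPM at D1 (median 158) and 169 to 299 CPM at D21 (median 204), with overlapping stages and log2 fold changes of 0.44 ± 0.09 for D1 against E17 and 0.42 ± 0.09 for D21 against D1. At D42 against E17 it was higher by 0.89 ± 0.09. DARS, the aspartate enzyme, did the reverse at first: it fell by 0.32 on the log2 scale at D1, then held 110 to 209 CPM at D21 against 64.9 to 98.1 CPM at D1 and rose by 0.75 ± 0.08 (adjusted p = 1.39e-13) without overlap. WARS, the tryptophan enzyme, fell by 0.45 at D1 and rose by 0.29 at D21. RARS, the arginine enzyme, held 47.5 to 74.3 CPM at D42 against 76.5 to 93.6 CPM at E17, with no overlap and a log2 fold change of −0.47 ± 0.05.

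Most mitochondrial synthetases fell after hatch. At D21 against D1, 10 of 13 were lower and none higher, where 36.8% of all genes were lower and 36.4% higher. The median log2 fold change was −0.56, beside −0.01 over all genes. Within breeds 9 fell in crossbred, 9 in Cornish and 8 in White Plymouth Rock muscle, beside 28.5%, 27.8% and 27.4% of all genes. WARS2 held 2.82 to 6.32 CPM at D21 (median 4.79) against 8.79 to 13.3 CPM at D1 (median 9.93). All D21 libraries lay below all D1 libraries, and the log2 fold change was −1.14 ± 0.08 (adjusted p = 2.93e-20). EARS2 and AARS2 likewise fell without overlap, by 0.91 and 0.86 on the log2 scale, and MARS2 by 0.88 with overlap. FARS2, RARS2 and PARS2 did not pass the test in this step, at −0.14, −0.15 and −0.02.

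At hatch the mitochondrial enzymes were mixed, 5 higher and 3 lower at D1 against E17, beside 37.3% and 35.6% of all genes. YARS2 held 24.9 to 55.1 CPM at D1 (median 37.5) against 15.9 to 24.7 CPM at E17 (median 19.9) and rose by 0.93 ± 0.08, without overlap. IARS2, which lies beside EPRS on chromosome 3 at a distance of 14265 bp, rose by 0.50 ± 0.06. RARS2 fell by 0.34 and FARS2 by 0.27 on the log2 scale. By D42, 9 of 13 were below E17 and 2, YARS2 and PARS2, above, beside 41.2% and 40% of all genes.

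Other genes of translation were followed through lists of their own, which include no member. In D1 against E17 muscle 37.3% of all genes rose and 35.6% fell. Of 23 further cytosolic translation genes, 19 rose and 1 fell in this step, with a median of 0.51. They included PABPC4, a poly(A)-binding protein, at 2.28 ± 0.13, and MKNK2, an EIF4E kinase, at 1.52 ± 0.15. Of 27 genes of the mTOR arm, which relays growth signals to initiation, 17 rose and 3 fell. MTOR rose by 1.39 ± 0.10 and SESN1, an inhibitor of its complex, by 2.93 ± 0.29, while DEPTOR, a binding inhibitor, had −1.24 ± 0.20. At D21 against D1, 9 of these 27 were higher and 11 lower, beside 36.4% and 36.8% of all genes. MTOR had −1.11 ± 0.09.

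Of 20 targets of the amino acid and stress response driven by ATF4, 9 rose and 7 fell at D1 against E17. In that step 37.3% of all genes rose and 35.6% fell. STC2, a secreted glycoprotein, rose by 4.02 ± 0.27 and fell by 4.55 on the log2 scale at D21. SLC7A5, a carrier of large neutral amino acids, fell by 1.48 at D1 and rose by 5.29 ± 0.19 at D21. ATF4 itself had −0.36 ± 0.08 at D1 and 0.48 ± 0.08 at D21. The 13 further genes of mitochondrial translation had 8 higher and none lower at D1, then 2 higher and 7 lower at D21, where GATB, a subunit of the enzyme that makes glutaminyl-tRNA, had −2.02 ± 0.14 and MTIF3, a mitochondrial initiation factor, 1.16 ± 0.08. Of 19 nucleolar genes of ribosome building, 13 were lower and 4 higher at D21 against D1. NCL, the major nucleolar protein, had −0.36 ± 0.05. In that step 36.8% of all genes were lower and 36.4% higher.

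The second question was whether breeds differed. No member was called in the test of whether its stage course depended on breed (the interaction). With edgeR 0 of 85 passed the threshold and 0 had an unadjusted p under 0.05, and DESeq2 also called 0. Over all 11932 genes 7 were called, or 0.0587%, and 976 had an unadjusted p under 0.05. A miss does not show that courses were equal.

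Within single breeds the hatch step kept its upward balance. D1 against E17 had 46 members higher and 7 lower in crossbred muscle, where 28.2% of all genes were higher and 25.5% lower (53.7% in all). Cornish muscle had 50 higher and 9 lower, beside 29.5% and 28% of all genes (57.5%), and White Plymouth Rock muscle 39 higher and 5 lower, beside 28.4% and 25.2% (53.5%). More members fell than rose at D21 against D1 in each breed. The counts were 18 higher and 38 lower in crossbred muscle, beside 27.8% and 28.5% of all genes (56.3%), 20 and 31 in Cornish, beside 27.5% and 27.8% (55.3%), and 19 and 29 in White Plymouth Rock, beside 26.3% and 27.4% (53.6%).

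Few members passed the test within a breed at D42 against D21. Crossbred muscle had 0 higher and 2 lower, beside 3.6% and 2.52% of all genes (6.12%), and DESeq2 called 5 there. Those shares are from edgeR, and the DESeq2 share of all genes is not given here. Cornish muscle had 2 higher and 5 lower, beside 4.6% and 4.35% (8.95%), and White Plymouth Rock muscle 3 higher and 2 lower, beside 4.34% and 3.92% (8.26%). Over the whole course, D42 against E17, 35 members were higher and 25 lower in crossbred muscle, beside 34.3% and 33.5% of all genes (67.8%). Cornish muscle had 35 and 23, beside 33.7% and 33.2% (67%), and White Plymouth Rock muscle 34 and 25, beside 33.7% and 35.2% (69%).

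At E17 the purebreds differed in 2 members, where 3.72% of all 11717 genes tested were called, 1.65% higher and 2.07% lower in Cornish muscle. DESeq2 called 6 members in this comparison, and edgeR with replicate number as a block called 1, EEF1E1. The shares of all genes called in those fits are not given here, and the 3.72% applies to neither. EEF1E1 held 20.3, 19.0, 17.98, 22.2, 21.0 and 16.2 CPM in Cornish muscle, against 26.1, 31.8, 26.7, 27.3, 27.3 and 25.6 CPM in White Plymouth Rock muscle. Every Cornish library was below every White Plymouth Rock library, and the log2 difference, Cornish over White Plymouth Rock, was −0.51 ± 0.11 (adjusted p = 0.0158). FARS2, the mitochondrial phenylalanine enzyme, held 25.5, 25.3, 28.7, 23.7, 23.5 and 25.3 CPM in Cornish muscle, against 21.6, 23.2, 21.3, 19.0, 20.6 and 19.6 CPM in White Plymouth Rock muscle. All Cornish values were above all White Plymouth Rock values, by 0.27 ± 0.07 on the log2 scale (adjusted p = 0.0337). Crossbred muscle overlapped both breeds in both genes, with means of 22.4 ± 4.09 CPM for EEF1E1 and 23.3 ± 1.99 CPM for FARS2 (SD, n = 6).

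Both calls were lost when all 72 libraries shared a single fit (EEF1E1 adjusted p = 0.415, FARS2 adjusted p = 0.486), and that of FARS2 also without any of 8 single libraries. Summed red blood cell markers (6 of 9 in the table) ran from 1043 to 1482 CPM in the Cornish E17 libraries, against 432 to 985 CPM in the White Plymouth Rock E17 libraries; their part in these differences was not tested.

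**Figure D5:**
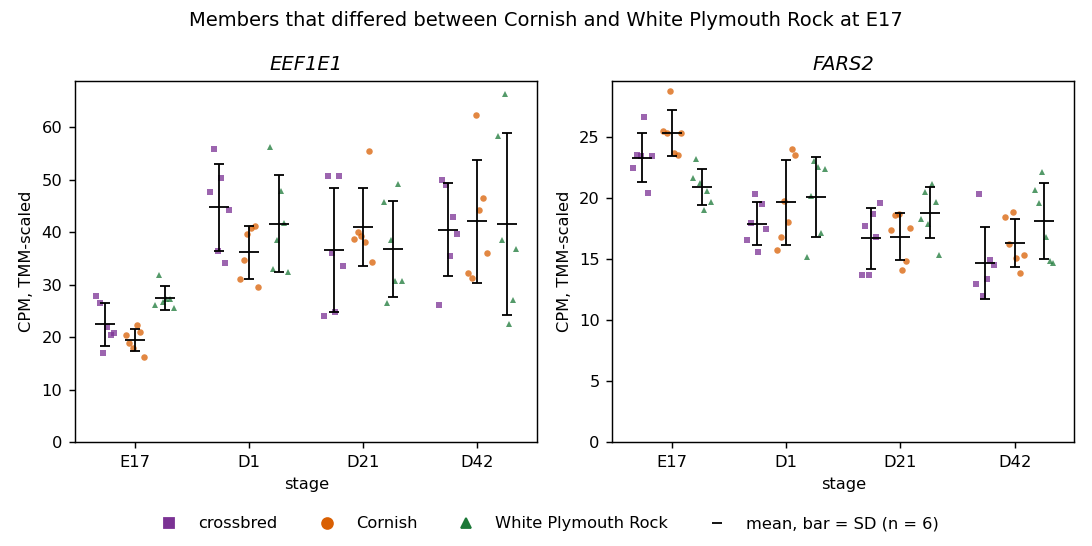
CPM (y axis, from 0) of EEF1E1 (left) and FARS2 (right) in every library by stage (x axis) and breed; horizontal marks are means and bars SD (n = 6). At E17 the Cornish libraries lie below the White Plymouth Rock libraries for EEF1E1 and above them for FARS2, and at the later stages the breeds overlap.

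No other breed comparison called a member with edgeR at any stage. Over all genes the adjusted threshold was passed by 0.0171% in crossbred against Cornish muscle at E17, and by 0%, 2.93% and 0.0347% in Cornish against White Plymouth Rock muscle at D1, D21 and D42. An unadjusted p under 0.05 was reached by 19 members in crossbred against Cornish muscle at E17, 22.4% of the 85, beside 10.6% of all genes. Of these 19, EIF3H had a log2 difference of 0.33 ± 0.10 (adjusted p = 0.319) and EIF2S3 of 0.24 ± 0.08 (adjusted p = 0.319). Crossbred against White Plymouth Rock muscle had 4 such members at E17, 4.71% beside 9.2% of all genes. In Cornish against White Plymouth Rock muscle at E17 there were 17, and their share of 20% was near the 19.8% of all genes. Cornish against White Plymouth Rock muscle had 4 at D1 (4.71% beside 8.66%), 8 at D21 (9.41% beside 18.2%) and 3 at D42 (3.53% beside 8.48%), each share below that of all genes. DESeq2 called 2 members at D21 in the purebred comparison and 0 in the crossbred comparisons. Its shares of all genes are not given here.

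The authors' deposited table for E17 lists 23 members under Cornish against White Plymouth Rock, 27.1% of the 85 beside 20.9% of the genes in the count table. Under crossbred against Cornish the authors' deposited table lists 21 members, 24.7% beside 11.8%. In the other 10 of the 12 comparisons of the authors' deposited tables the members' share was below that of all genes, for example 3.53% beside 9.09% for crossbred against White Plymouth Rock at E17 and 9.41% beside 17.6% for Cornish against White Plymouth Rock at D21. The largest p-value of a member in the authors' deposited tables is 0.0495. The signs in the authors' deposited table run opposite to the order of its row labels for every member listed. For EEF1E1 the authors' deposited table gives a log2 value of 0.51, against −0.51 in the fit of Cornish over White Plymouth Rock.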

How the data were processed

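Members, gene lists and tests were chosen with earlier results of these data known. The authors deposited 1 table of estimated counts, as whole numbers without normalisation, and breed tables with a log2 fold change and a p-value per listed gene. Per the submitters' processing notes the tools include cutadapt 4.4, HISAT2 2.2.1 and StringTie, with the GRCg7b build; how reads were assigned to genes is not given in the sources used here. Multiples of 4 made up 32.87% of the low counts from 1 to 20 (25% under an even spread).

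edgeR 4.0.16 (R 4.3.3) was run on the counts, after filterByExpr and TMM, with the quasi-likelihood F test and Benjamini-Hochberg adjustment over all genes tested, at a threshold of 0.05. Adjusted p-values are from edgeR except where DESeq2 is named. Stage steps used all 72 libraries with a mean for each of 12 groups, and breeds within a stage used its 18 libraries. The EEF1A ratio used log2(CPM + 0.5) and permutation tests. The naming rule took, per stage step and role, the 2 called members of largest change in each direction with a mean of at least 5 CPM, every member called between breeds, a fixed set of key regulators and factors, and likewise 2 genes each way per further list; other genes named were chosen after their values were seen. Of the members, 80 matched a RefSeq symbol (GRCg7b), the source of positions. Alternatives were DESeq2 1.42.0, other scaling, filters and pseudocount, counts divided by 4, a replicate block, smaller fits and fits without single libraries. The fits were tested on simulated data: for D1 against E17 among 11925 genes, 63% of genes changed by log2 0.5 and 85% of those changed by 1 were called. For Cornish against White Plymouth Rock the shares were 61.6% and 76.8% at E17 (11678 genes), 7.07% and 66% at D1 (11490 genes), 43% and 74.2% at D21 (11469 genes), and 7.07% and 42.4% at D42 (11464 genes), so changes of 0.5 were mostly missed at D1 and D42. At most 100 genes were changed by each size, whereas 73% of all genes were called for D1 against E17 in the data. With fewer changed genes the adjusted threshold is stricter, so the simulated share for that step does not carry over to the data. Between the purebreds the data had 436 genes called at E17, 0 at D1, 337 at D21 and 4 at D42. The simulated shares for those comparisons do not carry over either. The values of 1 member are not reported here.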

Additional observations from a re-analysis of the deposited data

Results flagged for a closer look

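Single libraries far from the other 5 of their group were looked for in 312 groups, and 24 were found; chance alone marks about 1 group in 20. Of these, 7 lay in D42 libraries numbered 3. In Cornish D42 library 3, EIF4E stood at 206 CPM (others 124 to 135) and EIF4EBP1 at 632 CPM (others 344 to 411), and the mean log2 deviation was 0.543 for initiation factors and 0.359 for elongation factors. In crossbred D42 library 3, EEF1A2 stood at 11599 CPM (others 7471 to 8480), EIF4E at 185 CPM (others 115 to 133) and EIF2AK4 at 67.6 CPM (others 43.2 to 47.6).

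Cornish D21 library 5 was high in EEF1A2 at 10885 CPM (others 6365 to 7602), EEF1E1 at 55.5 CPM, EEF2 at 3997 CPM (others 2856 to 3267) and EIF4G1 at 427 CPM. White Plymouth Rock D1 library 1 had mean log2 deviations of 0.479 for elongation factors and 0.288 for initiation factors. EIF2AK2 reached 130 CPM in White Plymouth Rock D42 library 6 (others 35.1 to 52.4).

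Among synthetases, WARS was 28.0 CPM in crossbred E17 library 5 (others 23.8 to 25.1) and FARS2 20.3 CPM in crossbred D42 library 2 (others 11.9 to 14.9). The mean log2 deviation of the cytosolic set was −0.222 in Cornish D1 library 1, 0.243 in White Plymouth Rock D1 library 6 and 0.249 in White Plymouth Rock E17 library 3, and that of the mitochondrial set 0.439 in White Plymouth Rock D1 library 3. EEF1E1 was 31.8 CPM in White Plymouth Rock E17 library 2, EIF2AK4 42.7 CPM in crossbred E17 library 1, and EIF4EBP2 63.9 CPM in White Plymouth Rock D21 library 6 (others 69.5 to 71.9). The elongation factors deviated by −0.506 in Cornish E17 library 6.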

How the results depend on the processing

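Of 3060 values of members in stage steps under the alternatives, 2968 kept their side of the threshold, 38 lost the call and 54 gained one. Direction was checked only for the 225 of 340 main values that were called, and 0 of these reversed. Of the 18 calls lost at least once, 11 were in D42 against D21. The members called in Cornish against White Plymouth Rock muscle at E17 numbered 6 with DESeq2, 1 with the replicate block and 0 with all 72 libraries in 1 fit, and 1 to 3 when single libraries were left out, an alternative chosen after seeing the data. In D21 muscle DESeq2 called 2 for the same breeds. The shares of all genes called under the alternatives are not given here. The log2 ratio of EEF1A2 to EEF1A1 differed by 0.17 at D21 against D1 in crossbred birds alone (all breeds −0.10), and at D42 against D21 by 0.38 in crossbred and 0.38 in Cornish birds alone, both short of the threshold. EIF4A2 had −0.17 at D21 against D1 without White Plymouth Rock D1 library 1, chosen after seeing the data (−0.28 with it), and EIF4E3 then gained a call at 0.29. In each case the cause was not tested. Replicate numbers were not treated as pairing the samples, because the labels do not say what a replicate number marks. At D42, however, same-numbered libraries correlated on average by 0.22 to 0.25 between breeds (single pairs −0.113 to 0.71), against −0.05 to −0.04 for other numbers. The block moved D42 against D21 to 12 higher and 15 lower. It fits the same term for a replicate number at every stage, so it cannot fully take up a shift at D42 alone. Intervals and tests cover sampling of these libraries only, and gene length limits level comparisons between genes.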
